A study of Mus musculus with 4 samples.

Results

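Microglia are the resident macrophages of the brain, and a small number of them came through a sort for fluorescent cells that descend from the medial ganglionic eminence. They were chosen by measured values, from the UMI counts (unique molecular identifiers, 1 per captured RNA molecule) of each cell. A cell counted as microglia when it had 200 to 6000 genes with a UMI, under 30% of its UMIs from mitochondrial genes, at least 5 UMIs of C1qa, C1qb and C1qc together, at least 2 of Cx3cr1 and Csf1r together, no UMI of Mog and at most 1 of Gad1 and Gad2 together. The rule took 244 of the 26201 cells that met the limits on genes and mitochondrial UMIs (kept cells), 0.931% of them, out of 26987 cells in the files.

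Microglia enter the brain from the yolk sac early in embryonic life and renew themselves there. They live on signals through the receptor CSF1R, sense injury through the purinergic receptor P2RY12, and tag and engulf synaptic material with the help of the complement protein C1q. In the weeks after birth they clear debris and prune synapses in cortex and hippocampus, and they change their RNA quickly when tissue is dissociated.

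Single-cell RNA sequencing (10x Genomics) was done on TdTomato-positive cells sorted from frontal cortex and hippocampus of juvenile mice on postnatal days 18 to 20. All mice carried Nkx2-1-Cre and the Cre-dependent Ai14 TdTomato reporter, which mark the lineage of the medial ganglionic eminence. GRIN1-WT mice had 2 wild-type Grin1 alleles (WT), and GRIN1-KO mice were homozygous for a floxed Grin1 allele (null), so that Cre removes the obligate NMDA receptor subunit in that lineage. The comparisons ask how microglia caught in the sort differ between the regions and between the genotypes. The groups were WT cortex (3 libraries), null cortex (2), WT hippocampus (3) and null hippocampus (2), with replicate numbers from the study's methods. Microglia do not derive from the lineage of the Cre driver, so their own Grin1 alleles are floxed in the null groups but not deleted there by design. The methods state that the controls were littermates, that both sexes were used, and that several animals were processed per genotype, and the files do not say which animals a library holds. Dissociation used papain with inhibitors of transcription and of neuronal activity added, and replicate 1 was made with version 2 and replicates 2 and 3 with version 3 of the 10x chemistry.

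The UMI totals of WT cortex replicates 1, 2 and 3 were 9306756, 14212183 and 28057207, those of null cortex replicates 1 and 2 were 1488601 and 25688337, those of WT hippocampus replicates 1, 2 and 3 were 10555408, 8782181 and 20639002, and those of null hippocampus replicates 1 and 2 were 3856745 and 47338167. Microglia held 327142 of all 169924587 UMIs. They were shallow cells, with a median of 1258.5 UMIs (466 to 6285) and 731 genes, where the 8439 interneurons had a median of 9006 UMIs, the 8155 oligodendrocytes 5750.0 and the 342 astrocytes 2777.5. The median share of mitochondrial UMIs in microglia was 2.40%, and the highest was 21.4%. In all, 84 of the 244 microglia had fewer than 1000 UMIs. The comparison cells had at most 1 C1q UMI and were chosen on Gad1 and Gad2 (interneurons), Mog, Mag and Mobp (oligodendrocytes) or Aqp4 and Gja1 (astrocytes). Of the barcode sequences of kept cells, 88 were in more than 1 library. No barcode was shared among microglia, and 2 microglia shared one with another kept cell.

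The C1q limit lay in a sparse part of the data, while cells ran through the limit on Cx3cr1 and Csf1r. C1q UMIs of the microglia had a median of 34 (5 to 156), 1 cell stood at exactly 5 and 11 cells at 5 to 9, and 0 cells with 1 to 4 C1q UMIs met the rest of the rule. The cell at 5 had 602 UMIs. WT cortex 2 had 34 microglia, and 27 with a C1q minimum of 10 UMIs. Cx3cr1 and Csf1r together had a median of 7 UMIs (2 to 24). At exactly 2 there were 14 cells with a median of 929.5 UMIs, 9 of them with P2ry12, a gene the rule did not use, and just outside, at exactly 1, there were 8 cells with a median of 616 UMIs, 3 of them with P2ry12. Of the microglia, 222 had no Gad1 or Gad2 UMI and 22 had 1. Another 13 cells met every limit but those on Mog and the Gad genes: 1 in WT cortex 2, 8 in WT cortex 3, 2 in WT hippocampus 3 and 2 in null hippocampus 2. No doublet caller was run, so apart from those limits droplets with 2 cells were not looked for.

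Microglia per library ran from none to 95. WT cortex had 16 of 1277 kept cells in replicate 1, 34 of 3830 in replicate 2 and 95 of 3930 in replicate 3, or 1.25% (0.773 to 2.03), 0.888% (0.636 to 1.24) and 2.42% (1.98 to 2.95). Null cortex had 2 of 177 and 27 of 2578, or 1.13% (0.310 to 4.03) and 1.05% (0.721 to 1.52). WT hippocampus had 6 of 2219, 1 of 4599 and 41 of 3135, or 0.270% (0.124 to 0.589), 0.0217% (0.00384 to 0.123) and 1.31% (0.966 to 1.77). In null hippocampus replicate 1 there were 0 of 401 cells, with a Wilson upper limit of 0.949%, and in replicate 2 there were 22 of 4055, or 0.543% (0.359 to 0.820). WT cortex 3 was highest. Both null hippocampus libraries lay below all 5 cortical libraries, as did WT hippocampus 1 and 2. The range of WT hippocampus overlapped those of the 3 other groups. Ranges in parentheses are 95% Wilson intervals, and here and below intervals and floors cover counting error only.

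**Figure D1:**
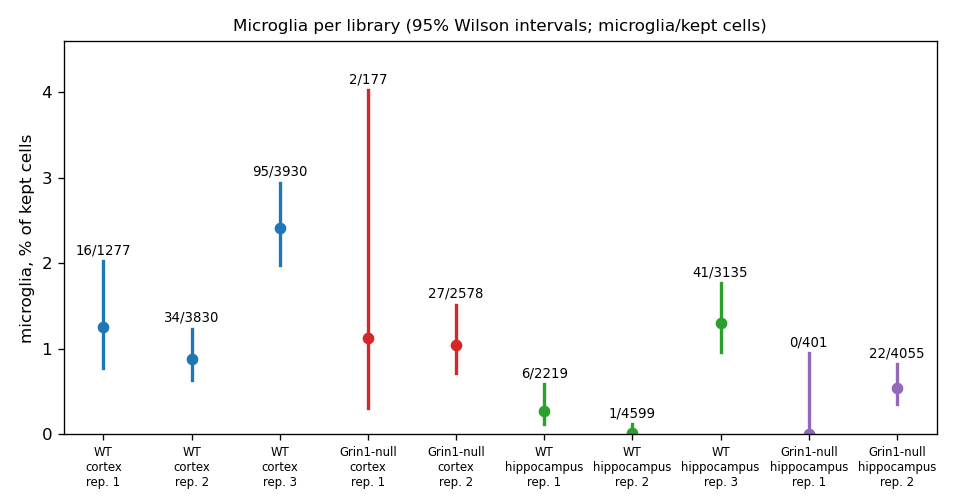
Microglia as a percent of the kept cells of each of the 10 libraries, by group and replicate, with 95% Wilson intervals; the labels give microglia over kept cells. WT cortex replicate 3 is highest at 2.42%. Both null hippocampus libraries lie below all 5 cortical ones, as do WT hippocampus replicates 1 and 2 (0.270 and 0.0217%).

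Mean shares were 1.52% ± 0.799 (SD, n = 3) in WT cortex, 1.09% ± 0.0584 (n = 2) in null cortex, 0.533% ± 0.682 (n = 3) in WT hippocampus and 0.271% ± 0.384 (n = 2) in null hippocampus. Hippocampus minus cortex in WT was -0.986 points (two-sided exact permutation p = 0.3), null minus WT was -0.431 points in cortex (exact permutation p = 0.8) and -0.262 points in hippocampus (exact permutation p = 0.8). The smallest p that 3 against 3 or 3 against 2 libraries allow in this exact permutation test is 0.1. Both genotype differences turned sign with single libraries left out. Without WT cortex 3 the cortical difference was 0.0183 points, as it was within replicates 1 and 2, and without WT cortex 2 it was -0.746. In hippocampus it was 0.125 points without WT hippocampus 3, again the value within replicates 1 and 2, and 0.00922 without null hippocampus 1. It was -0.533 without null hippocampus 2, -0.394 without WT hippocampus 1 and -0.518 without WT hippocampus 2. Without WT cortex 3 the regional difference was -0.537 points. WT hippocampus lay below WT cortex in replicates 1, 2 and 3. Pairing by replicate gave an exact permutation p of 0.25, the smallest that its 8 arrangements allow. With a minimum of 1000 genes and a maximum of 10% mitochondrial UMIs the regional difference was -0.0492 points, the cortical one 0.177 and the hippocampal one 0.0165. With cells thinned to 1000 UMIs they were -0.503, 0.0898 and -0.184. That setting also lowered the limits of the rule, to 3 C1q UMIs and 1 UMI of Cx3cr1 and Csf1r together.

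Gene values below come from 6 libraries with at least 10 microglia, which hold 235 of the cells: WT cortex replicates 1, 2 and 3, always in that order, null cortex replicate 2, WT hippocampus replicate 3 and null hippocampus replicate 2. The UMIs of a library's microglia were summed and are given as CPM (the UMIs of a gene per 1000000 UMIs of those microglia). Of the 4 groups 3 have a single such library, so these values have no replicates outside WT cortex. A gene at 0 in a library could stand at up to 3 UMIs, which is 119.8 CPM in WT cortex 1, 109 in WT cortex 2, 28.1 in WT cortex 3, 54.7 in null cortex, 48.9 in WT hippocampus and 76.3 in null hippocampus. Median UMIs per microglial cell were 1534.5, 718 and 1023 in WT cortex, 1967 in null cortex, 1526 in WT hippocampus and 1648.5 in null hippocampus, so WT cortex 2 is the shallowest.

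The genes used by the rule are given as description. C1qa, the A chain of the complement starter C1q, stood at 11383, 9744 and 10555 CPM in WT cortex, 11757 in null cortex, 11914 in WT hippocampus and 9561 in null hippocampus. C1qb, the B chain, had 11104, 6665 and 7972 CPM in WT cortex, 11629 in null cortex, 8703 in WT hippocampus and 9815 in null hippocampus, and C1qc, the C chain, had 9706, 5578 and 6559 CPM in WT cortex, 8421 in null cortex, 7790.5 in WT hippocampus and 6459 in null hippocampus. All 3 chains were of like level in every library, with C1qa making up 35.4 to 44.3% of the C1q UMIs, C1qb 30.3 to 38.0% and C1qc 25.0 to 30.1%. Csf1r, the receptor that keeps microglia alive, had 2636, 3731 and 2639 CPM in WT cortex, 2643 in null cortex, 2673 in WT hippocampus and 2314 in null hippocampus. Cx3cr1, the receptor for the neuronal chemokine fractalkine, had 1598, 3658 and 4276 CPM in WT cortex, 1312 in null cortex, 2819.6 in WT hippocampus and 1500.3 in null hippocampus. Cx3cr1 was lowest in null cortex and null hippocampus and close to them in WT cortex 1, while Csf1r was highest in WT cortex 2 and even elsewhere. Gad1 and Gad2, which make GABA, reached at most 50.9 and 84.2 CPM.

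P2ry12, the ADP receptor that marks microglia in the healthy brain, was not used by the rule and had a UMI in 200 of the 244 cells (82.0%), against 5 of 8439 interneurons (0.0592%) at median depths of 1258.5 and 9006 UMIs. Tmem119, a microglial surface protein, was seen in 73.8% of microglia and 0.0355% of interneurons, and Siglech, a sialic acid receptor, in 56.1% and 0.0474%. Trem2, a lipid receptor, was seen in 85.7% and 0.853%. Each share was higher in microglia, the shallower cells. The signalling partner of Trem2, Tyrobp, was in 94.7% and 0.142%, and the lysosomal protease Ctss in 95.1% and 0.0118%. The name microglia thus fits these markers in most of the cells, and 22 cells with a different marker set are described below as border macrophage-like.

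The homeostatic list holds 19 genes of resting microglia, all with UMIs. P2ry12 stood at 5552, 2137 and 1797 CPM in WT cortex, 1422 in null cortex, 2005 in WT hippocampus and 2416 in null hippocampus, highest in WT cortex 1 and similar in the 5 others. Its relative P2ry13 had 163 to 519 CPM over the 6 libraries. Cst3, a secreted inhibitor of cathepsins and the gene with the most UMIs here, had 76447, 64223 and 61588 CPM in WT cortex, 45333 in null cortex, 49025 in WT hippocampus and 43940.4 in null hippocampus. Its 3 WT cortex values lay above those of the 3 other libraries. Sparc, a matrix protein, had 3994, 4274 and 5539 CPM in WT cortex, 2388 in null cortex, 3912 in WT hippocampus and 2975 in null hippocampus, with the WT cortex values above both null libraries. Trem2 ran from 1413 to 2734 CPM, Tyrobp from 2354 to 4354 and Ctss from 3266 to 5272, with WT cortex 2 lowest for Trem2 and Tyrobp. Summed over the list, levels were 128570.0, 97258 and 98464 CPM in WT cortex, 80950.0 in null cortex, 84636 in WT hippocampus and 78498 in null hippocampus. Without the border macrophage-like cells they were 128570.0, 102517 and 103957 CPM in WT cortex, 97879.6 in null cortex, 103033 in WT hippocampus and 86672 in null hippocampus, so that WT hippocampus then lay within the range of WT cortex.

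Tests on genes used edgeR on the summed UMIs in 1 model over the 4 groups, and called a gene past the threshold when its adjusted p was below 0.01 and its change on the natural-log scale at least 0.1. The 2 residual degrees of freedom all come from the 3 WT cortex libraries, so the single libraries of the other groups are taken to vary as WT cortex does. WT cortex 1 is the only library in the model made with version 2 of the chemistry. The spread therefore includes a change of chemistry, and what sets WT cortex 1 apart cannot be told from chemistry. Of the homeostatic genes 18 of 19 passed the filter on low counts, and 0 changed between regions (background 0% of 1244 genes), between genotypes in cortex (0.402%) or in hippocampus (0.241%), where edgeR had 25, 78 and 48 genes of the 1244 at an unadjusted p under 0.05 and DESeq2 called 0 in each. Null cortex lay above all 3 WT cortex libraries for 2 of the 18 (background 25.6%) and below them for 5 (19.7%), and WT hippocampus lay above for 2 (19.1%) and below for 6 (17.7%). The median fitted log2 difference was -0.25 between regions, -0.19 between genotypes in cortex and -0.10 in hippocampus, beside -0.06, -0.04 and -0.01 over all genes tested. With genes at 0 set to their floor, the hippocampal median was -0.12 (-0.04 over all genes), and none of the 18 differed 4-fold between the hippocampal libraries, where 3.38% of all genes were at least 4-fold higher in null hippocampus and 0.965% lower.

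The complement and integrin list (12 genes) adds receptors to the C1q chains. Itgam, a chain of complement receptor 3, had 359, 652 and 739 CPM in WT cortex, 437 in null cortex, 619 in WT hippocampus and 559 in null hippocampus, higher in WT cortex 3 than in WT cortex 1. C3ar1, the receptor for the C3a fragment, had 97.8 to 381 CPM, and C3 itself had no UMI in any of the 6 libraries. C4b had 1 UMI in null cortex and 1 in WT hippocampus. Without the 3 C1q chains, which the rule used, 3 genes were tested and 0 passed in any comparison, with medians of 0.05, 0.42 and -0.12 (regions, cortex, hippocampus). The list's summed level without these chains was 919, 1449 and 1712 CPM in WT cortex, 1695 in null cortex, 1532 in WT hippocampus and 1475 in null hippocampus.

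Growth factor and cytokine receptors follow Csf1r. Tgfbr1, a receptor for TGF-beta, which keeps microglia in their resting state, had 479, 1195 and 879.6 CPM in WT cortex, 929.6 in null cortex, 505 in WT hippocampus and 788 in null hippocampus. Ifngr1, the interferon gamma receptor, had 477 to 966 CPM, and Tgfbr2 had 159.8 to 228 CPM. These receptors had UMIs in all 6 libraries and no clear order among the groups. Il1r1, the interleukin 1 receptor, had no UMI, and Ccr2, which marks monocytes, had 1 UMI in WT cortex 3 and 1 in WT hippocampus. Without Csf1r and Cx3cr1, which the rule used, 16 of the list's 18 names are in the files and 9 were tested, 0 of which passed, with medians of -0.05, 0.58 and 0.25. The summed level without those 2 was 2277, 3912 and 2667 CPM in WT cortex, 3737 in null cortex, 2705 in WT hippocampus and 3102 in null hippocampus.

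Some ligands of these receptors were higher in other cells. In interneurons Cx3cl1, fractalkine, had 245, 233 and 237 CPM in WT cortex, 179.9 in null cortex, 196 in WT hippocampus and 163 in null hippocampus, while microglia had 2 UMIs of it in WT cortex 3 and none elsewhere. Il34, a ligand of CSF1R, had 52.1, 41.1 and 46.1 CPM in WT cortex, 53.2 in null cortex, 26.9 in WT hippocampus and 50.4 in null hippocampus in interneurons, and Cd47, a signal against engulfment, had 292, 287 and 326 CPM in WT cortex, 259.6 in null cortex, 359 in WT hippocampus and 255 in null hippocampus. Cx3cl1 and Cd47 were lower in both null libraries, each of them replicate 2, than in all 4 WT libraries, and Il34 was lowest in WT hippocampus. The share of all interneuron genes with such an order was not counted, so it is not read as a difference between genotypes. Interneurons were not tested here. Cd200, which restrains microglia, had 129, 116 and 117 CPM in WT cortex, 169 in null cortex, 133 in WT hippocampus and 152 in null hippocampus in interneurons and no UMI in microglia. Csf1, the other CSF1R ligand, had a mean of 1.11 CPM in interneurons and 40.05 CPM in oligodendrocytes. Among ligands that microglia hold themselves, Tgfb1 had 479, 289.8 and 225 CPM in WT cortex, 328 in null cortex, 130.4 in WT hippocampus and 254 in null hippocampus, Gas6, a bridge to dying cells, had 181 to 522 CPM, and its relative Pros1 had 102 to 399 CPM. The ligand list (12 genes, 6 tested) had 1 gene past the threshold, Ccl2 in cortex (background 0.402%), where 60 of its 61 UMIs lay in border macrophage-like cells, with medians of 0.10, 0.12 and -0.35. Its summed level was 2916, 5796 and 9591 CPM in WT cortex, 22657 in null cortex, 18726 in WT hippocampus and 14774 in null hippocampus, most of it Apoe, of which border macrophage-like cells held 938 of 1133 UMIs in null cortex.

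Myeloid transcription factors were seen in every library. Spi1, which encodes the myeloid master factor PU.1, had 799, 362 and 505 CPM in WT cortex, 619.7 in null cortex, 407 in WT hippocampus and 407 in null hippocampus. Maf, a macrophage factor, had 559, 833 and 926 CPM in WT cortex, 565 in null cortex, 1027 in WT hippocampus and 839 in null hippocampus. Mef2c had 328 to 688 CPM and Mef2a 399 to 761 CPM. In both regions null lay below WT for Mef2c, and the other 3 had no such order. Sall1, a factor kept on in microglia, was in 27.0% of them, against 1.22% of interneurons and 17.3% of oligodendrocytes. Irf8, an interferon regulatory factor, had 479, 579.6 and 402 CPM in WT cortex, 219 in null cortex, 505 in WT hippocampus and 153 in null hippocampus, lowest in both null libraries. Cebpb, an inflammatory factor, had 0, 109 and 103 CPM in WT cortex, 456 in null cortex, 48.9 in WT hippocampus and 509 in null hippocampus, highest in both. Of 22 genes 13 were tested and 0 passed, with medians of -0.32, -0.20 and 0.02, and the summed level was 4433, 6411 and 5530.0 CPM in WT cortex, 5067 in null cortex, 4808 in WT hippocampus and 4984 in null hippocampus.

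Lysosomal genes are a large share of microglial RNA. Ctsd, a lysosomal protease, had 7029.6, 4238 and 4613 CPM in WT cortex, 6653 in null cortex, 4808 in WT hippocampus and 5543 in null hippocampus, and Ctsb, another, had 1598, 1195 and 1413 CPM in WT cortex, 2989 in null cortex, 2037 in WT hippocampus and 2136 in null hippocampus. Lgmn, legumain, had 4394, 1340.2 and 1722 CPM in WT cortex, 4083 in null cortex, 2119 in WT hippocampus and 3941 in null hippocampus. For Ctsb the null libraries and WT hippocampus lay above the 3 WT cortex libraries, and for Ctsd and Lgmn WT cortex 1 was highest. All 17 genes of the list were tested and 0 passed. Medians were 0.26, 0.36 and -0.06, and 8 of 17 lay above every WT cortex library in null cortex (background 25.6%) and 8 in WT hippocampus (19.1%). The summed level was 36546, 26225 and 27350.5 CPM in WT cortex, 37732 in null cortex, 31309 in WT hippocampus and 32370.4 in null hippocampus.

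Phagocytic receptors included Fcer1g, the shared signalling chain of Fc receptors, with 3595, 1884 and 2274 CPM in WT cortex, 2771 in null cortex, 2819.6 in WT hippocampus and 2365 in null hippocampus, and Fcgr3, an Fc receptor, with 1118, 507 and 608 CPM in WT cortex, 1167 in null cortex, 929 in WT hippocampus and 1221 in null hippocampus. Itgb5, an integrin that binds dying cells, had 919, 906 and 777 CPM in WT cortex, 656 in null cortex, 587 in WT hippocampus and 534 in null hippocampus. Stab1, a scavenger receptor, had 0, 181 and 337 CPM in WT cortex, 365 in null cortex, 456 in WT hippocampus and 305 in null hippocampus. Stab1 had no UMI in WT cortex 1, and Itgb5 was highest in the 3 WT cortex libraries. Of 17 genes 12 were tested and 0 passed, with medians of 0.18, 0.68 and -0.24, and the summed level was 13460.1, 9201 and 11322 CPM in WT cortex, 14619 in null cortex, 12647 in WT hippocampus and 10934 in null hippocampus. Timd4 had no UMI.

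Among 10 purinergic genes, P2ry6, the UDP receptor that triggers engulfment, had 199.7, 109 and 46.8 CPM in WT cortex, 146 in null cortex, 114 in WT hippocampus and 127 in null hippocampus. P2rx7, an ATP-gated channel, had 0, 145 and 74.9 CPM in WT cortex, 128 in null cortex, 130.4 in WT hippocampus and 50.9 in null hippocampus, and Entpd1, which breaks down extracellular ATP, had 39.9, 579.6 and 206 CPM in WT cortex, 201 in null cortex, 179 in WT hippocampus and 381 in null hippocampus. Most of these values rest on fewer than 20 UMIs. The list had 3 genes tested and 0 past the threshold, with medians of -0.61, -0.63 and 1.10, and a summed level of 6510.4, 3224 and 2583 CPM in WT cortex, 2224 in null cortex, 2787 in WT hippocampus and 3407 in null hippocampus. Adora1 and Adora2a, adenosine receptors, had no UMI.

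A list of 20 genes of activated microglia, axon-tract microglia and disease-associated microglia was led in UMIs by Apoe. Apoe, a lipid carrier, had 1638, 4709 and 8852 CPM in WT cortex, 20652 in null cortex, 17732 in WT hippocampus and 13477 in null hippocampus, low in WT cortex and higher in the 3 other libraries. Without the border macrophage-like cells it had 1638, 2004 and 4617 CPM in WT cortex, 4549 in null cortex, 5938 in WT hippocampus and 3544 in null hippocampus, so that both null values fell within the range of WT cortex. Ctsl, a protease, had 519, 797 and 1347 CPM in WT cortex, 1987 in null cortex, 1744 in WT hippocampus and 1602 in null hippocampus, and Cd9, a tetraspanin, had 839, 1123 and 1553 CPM in WT cortex, 1458 in null cortex, 880.1 in WT hippocampus and 839 in null hippocampus. Ctsd and Ctsb, given above, are in this list too. Lgals3, a galectin, had all of its 33 UMIs in null cortex in 1 cell. Clec7a had at most 2 UMIs in a library, Itgax and Spp1 1 UMI each in null cortex, and Gpnmb and Cd5l none. Of 8 genes tested 0 passed, 6 lay above every WT cortex library in null cortex (background 25.6%) and 5 in WT hippocampus (19.1%), and medians were 0.51, 1.23 and -0.07. The summed level was 12182, 12968 and 18751 CPM in WT cortex, 36602 in null cortex, 28375 in WT hippocampus and 24411 in null hippocampus, and without the border macrophage-like cells it was 12182, 10329 and 14667 CPM in WT cortex, 22604 in null cortex, 17391 in WT hippocampus and 14646 in null hippocampus.

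Interferon and antigen presentation genes were sparse. Bst2, an antiviral tether, had 79.9, 181 and 318 CPM in WT cortex, 437 in null cortex, 505 in WT hippocampus and 279.7 in null hippocampus. Ifitm3 had 1, 4 and 5 UMIs in WT cortex, 7 in null cortex, 1 in WT hippocampus and 6 in null hippocampus, and Ifi27l2a 0, 4 and 5 UMIs in WT cortex, 12 in null cortex, 6 in WT hippocampus and 1 in null hippocampus. Cxcl10, an interferon-induced chemokine, had UMIs in null hippocampus alone, 35 in 4 cells (890.0 CPM). Of 18 interferon genes 3 were tested and 0 passed, with medians of 0.68, 0.997 and -0.83, and a summed level of 279.6, 652 and 533 CPM in WT cortex, 911 in null cortex, 831 in WT hippocampus and 1500.3 in null hippocampus. B2m, the light chain of MHC class I, had 3714, 688 and 1095 CPM in WT cortex, 1531 in null cortex, 1222 in WT hippocampus and 1373 in null hippocampus. H2-D1, a class I heavy chain, had 399, 398 and 374 CPM in WT cortex, 784 in null cortex, 652 in WT hippocampus and 636 in null hippocampus, and H2-K1, another, had 159.8, 181 and 290.1 CPM in WT cortex, 529 in null cortex, 375 in WT hippocampus and 610.3 in null hippocampus. Of the 3, B2m was highest in WT cortex 1, while H2-K1 and H2-D1 were lower in WT cortex than in the 3 other libraries. H2-DMa had 65.2 to 399 CPM and Cd86, a costimulator, 119.8 to 309 CPM. H2-Aa, Ciita and Cd40 had no UMI. Of 13 presentation genes 5 were tested and 0 passed, with medians of 0.01, 0.23 and 0.44, and a summed level of 4913, 1739 and 2236 CPM in WT cortex, 3390.4 in null cortex, 2640.3 in WT hippocampus and 3153 in null hippocampus.

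Differences between libraries were large in 25 immediate early and dissociation genes, which respond within minutes to stimuli and to tissue dissociation. Their summed level was 759, 10649.5 and 2545 CPM in WT cortex, 23204 in null cortex, 1711 in WT hippocampus and 26064 in null hippocampus. Both null libraries were high, WT cortex 2 was in between, and the 3 libraries of replicates 1 and 3 were low. Cells of all types with at least 30% mitochondrial UMIs, which were not kept, were 0, 0.0519 and 0.101% in these WT cortex libraries, 9.90% in null cortex 2, 0.127% in WT hippocampus 3 and 5.97% in null hippocampus 2, so they were frequent in both null libraries and rare in WT cortex 2. Median mitochondrial shares of the microglia were 0.995, 1.87 and 3.21% in WT cortex, 1.62% in null cortex, 2.77% in WT hippocampus and 1.73% in null hippocampus. The part of cell quality in the difference was not tested. In interneurons of the same libraries the sum was 2250.4, 3716 and 2767 CPM in WT cortex, 2346 in null cortex, 2479 in WT hippocampus and 3442 in null hippocampus, and in oligodendrocytes 2192, 4712 and 2579.6 CPM in WT cortex, 2762 in null cortex, 2265 in WT hippocampus and 3885 in null hippocampus. In astrocytes (14 to 111 cells in a library) it was 589, 5983 and 2385 CPM in WT cortex, 2139 in null cortex, 1348 in WT hippocampus and 6202 in null hippocampus. In all 3 cell types the replicate 2 libraries of WT cortex and null hippocampus were highest. In the 3 replicate 2 libraries the level in microglia was above those of all 3. In the median microglial cell the genes took 0.0662, 0.773 and 0.219% of UMIs in WT cortex, 1.56% in null cortex, 0.179% in WT hippocampus and 2.64% in null hippocampus. They passed 1% of UMIs in 0 of 16, 13 of 34 and 3 of 95 cells in WT cortex, 19 of 27 in null cortex, 0 of 41 in WT hippocampus and 17 of 22 in null hippocampus.

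**Figure D2:**
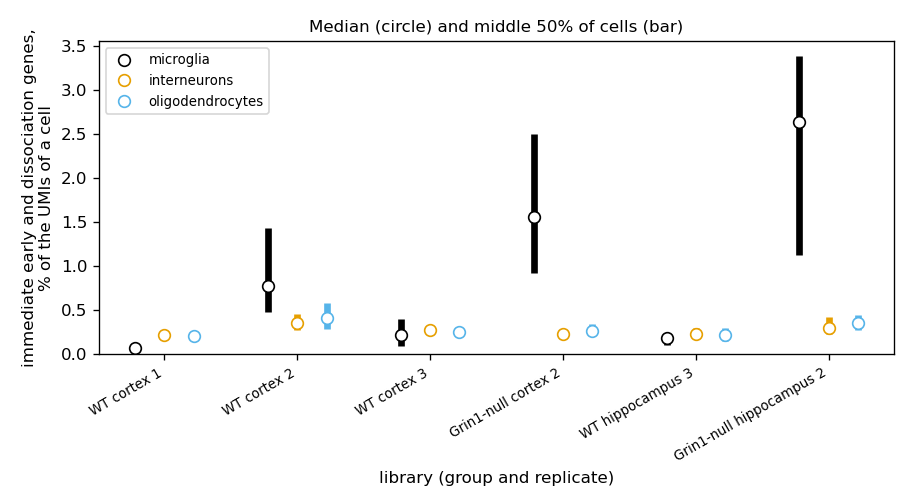
Percent of the UMIs of a cell from 25 immediate early and dissociation genes, as the median (circle) and the middle 50% of cells (bar), for microglia, interneurons and oligodendrocytes of the 6 libraries with at least 10 microglia. Microglia of the 3 replicate 2 libraries (WT cortex 2, null cortex 2, null hippocampus 2) lie highest, with medians of 0.773, 1.56 and 2.64%.

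Fos, a subunit of the AP-1 transcription factor, had 0, 906 and 46.8 CPM in WT cortex, 2643 in null cortex, 32.6 in WT hippocampus and 2187 in null hippocampus. Jun, its partner, had 79.9, 1521 and 337 CPM in WT cortex, 3026 in null cortex, 147 in WT hippocampus and 1933 in null hippocampus, and Junb had 39.9, 1340.2 and 149.7 CPM in WT cortex, 2206 in null cortex, 81.5 in WT hippocampus and 3407 in null hippocampus. Each was highest in both null libraries, next in WT cortex 2 and low in the others, so WT and null do not overlap for these 3 genes and lie closest within replicate 2. Jund had 239.6, 1558 and 468 CPM in WT cortex, 2515 in null cortex, 228 in WT hippocampus and 2746 in null hippocampus. Rhob, an early response GTPase, had 119.8, 1594 and 496 CPM in WT cortex, 1458 in null cortex, 391 in WT hippocampus and 1653 in null hippocampus, as high in WT cortex 2 as in the null libraries. Nfkbia, the inhibitor of NF-kappaB, had 39.9, 289.8 and 18.7 CPM in WT cortex, 1057 in null cortex, 130.4 in WT hippocampus and 1907 in null hippocampus, and Atf3, a stress factor, had 0, 471 and 9.36 CPM in WT cortex, 638 in null cortex, 0 in WT hippocampus and 1246 in null hippocampus. WT cortex 2 exceeded WT cortex 3 in Fos by 19.4-fold (counting interval 7.28 to 64.7), in Junb by 8.95-fold (4.86 to 17.2) and in Jun by 4.52-fold (2.82 to 7.26). Within replicate 2, null cortex exceeded WT cortex in Fos by 2.92-fold (1.90 to 4.66), in Jun by 1.99-fold (1.41 to 2.86) and in Junb by 1.65-fold (1.13 to 2.45). Without the border macrophage-like cells these ratios were 1.46 (0.895 to 2.46), 1.32 (0.895 to 1.97) and 1.73 (1.17 to 2.62), so that the intervals of Fos and Jun then include 1.

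In the cortex, 5 of 1244 genes passed the threshold, all higher in null cortex, and 4 of them are immediate early and dissociation genes. Hspa1a, an inducible chaperone of the HSP70 family, had 0, 72.4 and 0 CPM in WT cortex, 1276 in null cortex, 0 in WT hippocampus and 3102 in null hippocampus. Dusp1, a phosphatase that switches off MAP kinases, had 0, 289.8 and 18.7 CPM in WT cortex, 2242 in null cortex, 0 in WT hippocampus and 890.0 in null hippocampus. Ier3, an early response gene tied to cell survival, had 0, 72.4 and 37.4 CPM in WT cortex, 1094 in null cortex, 32.6 in WT hippocampus and 432 in null hippocampus. For all 3 the null libraries lay above every WT library, with WT cortex 2 the highest WT library. Klf2, a transcription factor that quiets macrophages, had 0, 36.2 and 28.1 CPM in WT cortex, 619.7 in null cortex, 0 in WT hippocampus and 407 in null hippocampus. Ccl2, which attracts monocytes, had 0, 145 and 9.36 CPM in WT cortex, 1112 in null cortex, 16.3 in WT hippocampus and 483 in null hippocampus. For Klf2 and Ccl2 too the null libraries lay above every WT library.

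Hspa1a rose in null cortex by 6.29 on the log2 scale (SE 0.93, edgeR adjusted p = 0.00157, above 3 of 3 WT libraries), and its adjusted p ran from 3.11e-11 to 1 over the alternatives. Ier3 rose by 4.78 (SE 0.75, edgeR adjusted p = 0.00184, above 3 of 3), with a range from 5.72e-10 to 0.37. Klf2 rose by 4.52 (SE 0.79, edgeR adjusted p = 0.00419, above 3 of 3), with a range from 6.73e-07 to 1. In the same test Ccl2 rose by 4.87 (SE 0.87, edgeR adjusted p = 0.00419, above 3 of 3; range 3.36e-10 to 1) and Dusp1 by 4.79 (SE 0.86, edgeR adjusted p = 0.00419, above 3 of 3; range 4.47e-11 to 1). The log2 change stayed above 0 for all 5 in each alternative that tested them (13 for Ccl2 and 14 for the 4 others), but the calls depended on the setting. DESeq2 called 0 genes, as did library-size scaling and a C1q minimum of 10 UMIs, with changes of 5.85, 6.24 and 6.17 for Hspa1a and 4.91, 4.73 and 4.97 for Ier3. With only the 2 cortical groups in the model 6 genes passed, 4 of the 5 among them (not Klf2). There were 26 genes that passed without WT cortex 1, 15 without WT cortex 2, 5 (3 higher, 2 lower) without WT cortex 3, and 0 without WT hippocampus 3 or without null hippocampus 2. Without the 22 border macrophage-like cells 1 gene passed, Ier3. With a replicate block, which needed sums of at least 5 cells and was added after the data were seen, 10 genes passed. The 4 higher ones were Ier3, Dusp1, Hspa1a and Ccl2, 4 of the 5 calls, with changes of 3.74, 2.81, 3.97 and 2.79, and the 6 lower ones were Yam1, Lars2, Meg3, Malat1, Snhg11 and Son. That fit has 1 residual degree of freedom.

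**Figure D3:**
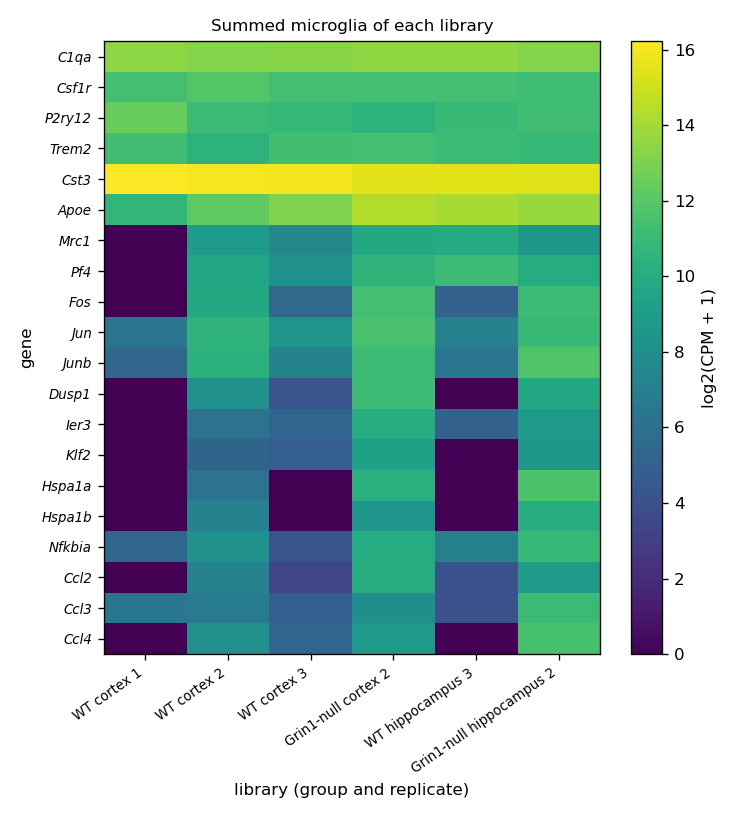
log2(CPM + 1) of 20 genes in the summed microglia of each library, from rule and homeostatic genes at the top to immediate early, chaperone and chemokine genes at the bottom. The lower genes are brightest in null cortex 2 and null hippocampus 2 and intermediate in WT cortex 2.

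The UMIs of these genes were unevenly spread over the 27 microglia of null cortex. Hspa1a had 70 UMIs in 9 cells, 61 of them in the 6 border macrophage-like cells. Ccl2 had 61 UMIs in 5 cells, 60 of them in border macrophage-like cells. Dusp1 had 123 UMIs in 21 cells, 76 of them in border macrophage-like cells, and Ier3 had 60 UMIs in 9 cells, 37 of them in 1 cell. Klf2 was more even, with 34 UMIs in 14 cells. Fos and Dusp1 were both present in 18 of 27 cells in null cortex, 12 of 22 in null hippocampus, 5 of 34 in WT cortex 2 and 0 in the 3 other libraries. In null cortex Fos and Junb were in 21 cells and Jun in 22, and the 6 border macrophage-like cells held 87 of 145 Fos, 79 of 166 Jun and 21 of 121 Junb UMIs. At an adjusted p under 0.05, 7 genes passed in edgeR (0.563%), adding 2: Lgals3, by 7.98 on the log2 scale (adjusted p = 0.0228, all UMIs in 1 cell), and the chemokine Ccl7, by 5.64 (adjusted p = 0.0395, 22 of 23 UMIs in 1 cell), each above 3 of 3 WT libraries.

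In the hippocampus, 3 of 1244 genes passed, all higher in null hippocampus, in a comparison of 1 library with 1. Hspa1a was at 0 UMIs in WT hippocampus and 122 in null hippocampus, at least 63.4-fold higher (edgeR adjusted p = 0.00452, 1 of 1 library, range over alternatives 1.28e-12 to 1). Ccl4, a chemokine that draws immune cells, was at 0 and 114 UMIs, at least 59.3-fold higher (edgeR adjusted p = 0.00763, 1 of 1 library, range 7.93e-13 to 1). Ccl3, its close relative, had 1 and 82 UMIs, a ratio of 128 with a counting interval of 22.3 to 5114 (edgeR adjusted p = 0.00452, 1 of 1 library, range 3.95e-11 to 1). Their UMIs lay in 12, 9 and 8 of the 22 cells. DESeq2 called 0 genes, and 0 passed with library-size scaling, with a C1q minimum of 10 UMIs, without the border macrophage-like cells or with the replicate block. Without the border macrophage-like cells the fitted log2 changes of Hspa1a, Ccl4 and Ccl3 were 9.82, 9.95 and 6.37 (edgeR adjusted p = 0.0215, 0.0489 and 0.0215), beside 10.4, 10.3 and 6.83 in the main fit, the first 2 with WT hippocampus at 0. With sums of at least 5 cells, which bring in WT hippocampus 1, they were 10.1, 2.86 and 4.42 (edgeR adjusted p = 0.00344, 0.996 and 0.0591), and with the replicate block on those sums 5.26 (SE 14089), 0.642 and 3.07 (edgeR adjusted p = 1 for each). Without WT cortex 1 there were 23 genes, without WT cortex 2 there were 15, without WT cortex 3 there were 11 and without null cortex 2 there were 0. WT hippocampus is replicate 3 and null hippocampus replicate 2, so genotype and replicate cannot be told apart here.

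Read by counts, 22 of the 25 immediate early and dissociation genes were tested. In cortex 4 passed (background 0.402%), 19 lay above all 3 WT libraries (25.6%), and the median log2 difference was 2.60 beside -0.04 over all genes. In hippocampus 1 passed (background 0.241%) and 19 were at least 4-fold higher (3.38%), with a fitted median of 5.35, or 3.72 with the 9 genes at 0 in WT hippocampus at their floor, beside -0.04 over all genes. Between regions in WT 0 passed, 3 lay below all WT cortex libraries (background 17.7%), and the median was -2.36 beside -0.06. Within replicate 3 the regional median was -0.334 (0 over all genes), with 0 of the 22 at least 4-fold lower in hippocampus (background 0.322%). Both null libraries lay above all 4 WT libraries for 19 of the 22 (background 10.6%) and below them for 0 (8.12%). All 3 replicate 2 libraries lay above the 3 others for 20 of the 22 (background 7.4%) and below them for 0 (5.63%). Replicate and genotype are thus nearly the same split in these libraries, and only the 2 cortical replicate 2 libraries compare genotypes within a replicate. There null cortex was at least 4-fold above WT cortex for 5 of the 22 (background 2.73%) and 4-fold below it for 0 (2.97%). It was higher for 19 (618 of all 1244 genes), with a median of 1.25, or 1.42 with the gene at 0 at its floor, beside 0.08 over all genes. The parts of replicate and genotype in the other comparisons cannot be told apart.

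Interneurons held some of these genes too. Hspa1a had 4.23, 55.6 and 6.34 CPM in WT cortex, 8.51 in null cortex, 14.0 in WT hippocampus and 94.7 in null hippocampus in interneurons, and Fos had 21.6, 228 and 35.6 CPM in WT cortex, 48.4 in null cortex, 18.9 in WT hippocampus and 262 in null hippocampus. WT cortex 2 and null hippocampus 2 were high in both, while null cortex 2 was among the low libraries. Ccl2, Ccl3 and Ccl4 had mean levels of 0.0154, 0.00768 and 0.0282 CPM in interneurons. Hspa1b is a close relative of Hspa1a, and how far reads tell these genes apart was not tested. In microglia Hspa1b had 0, 145 and 0 CPM in WT cortex, 365 in null cortex, 0 in WT hippocampus and 1119 in null hippocampus. Hspa1a and Hspa1b were both present in 10 of 22 cells of null hippocampus. At an adjusted p under 0.05, 11 genes passed in hippocampus in edgeR (0.884%), adding 8: the early factor Egr1, the RNA decay factor Zfp36, Hspa1b, the activation marker Cd83, Ier5, Cxcl10, Klf2 and Dusp1. Zfp36 had 39.9, 326 and 93.6 CPM in WT cortex, 529 in null cortex, 0 in WT hippocampus and 839 in null hippocampus and Cd83 39.9, 181 and 46.8 CPM in WT cortex, 401 in null cortex, 32.6 in WT hippocampus and 1093 in null hippocampus, both highest in null hippocampus.

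Cytokines and chemokines make up a list of 16 genes, 8 of them tested. Ccl3 had 79.9, 109 and 28.1 CPM in WT cortex, 273 in null cortex, 16.3 in WT hippocampus and 2085 in null hippocampus, and Ccl4 had 0, 289.8 and 37.4 CPM in WT cortex, 419 in null cortex, 0 in WT hippocampus and 2899 in null hippocampus. Ccl12, another monocyte attractant, had 199.7, 145 and 187 CPM in WT cortex, 292 in null cortex, 196 in WT hippocampus and 279.7 in null hippocampus. Ccl12 was even over the libraries, and Ccl3 and Ccl4 stood out in null hippocampus. Tnf had 0, 2 and 0 UMIs in WT cortex, 14 in null cortex, 0 in WT hippocampus and 6 in null hippocampus, and Il1a had 1, 2 and 5 UMIs in WT cortex, 3 in null cortex, 3 in WT hippocampus and 13 in null hippocampus. Il1b had 2 UMIs in null hippocampus, Il6 had 1 in WT cortex 3, and Il10 none. Cxcl2, a neutrophil attractant, had 17 UMIs in null hippocampus, all in 1 border macrophage-like cell, and 4 in null cortex, all in 1 cell of the other microglia. In null hippocampus Ccl3 and Ccl4 were both present in 6 cells. The summed level was 919, 1268 and 720.5 CPM in WT cortex, 3062 in null cortex, 522 in WT hippocampus and 7196 in null hippocampus. In cortex 1 of the 8 passed (background 0.402%), 6 lay above all WT libraries (25.6%), and the median was 2.21. In hippocampus 2 passed (0.241%) and 6 were at least 4-fold higher (3.38%), with a fitted median of 5.38, or 2.95 with 3 genes at their floor. Between regions 0 passed and the median was -1.13. Within replicate 2 the cortical median was 0.907, with 1 of 8 at least 4-fold higher in null (background 2.73%), and within replicate 3 the regional median was 0.

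The 7 genes past the threshold are given here with the identifiers of the files and positions from GENCODE vM21 on GRCm38. They are Hspa1a (ENSMUSG00000091971.3, chr17:34969190-34972156, minus strand), Dusp1 (ENSMUSG00000024190.6, chr17:26505590-26562128, minus strand) and Ier3 (ENSMUSG00000003541.6, chr17:35821684-35822923, plus strand). The chemokine genes are Ccl2 (ENSMUSG00000035385.5, chr11:82035571-82037453, plus strand), Ccl3 (ENSMUSG00000000982.5, chr11:83647844-83649355, minus strand) and Ccl4 (ENSMUSG00000018930.3, chr11:83662584-83664683, plus strand). Klf2 is ENSMUSG00000055148.7, chr8:72319033-72321656, plus strand. Hspa1a, Dusp1 and Ier3 share chromosome 17, and Ccl2, Ccl3 and Ccl4 share chromosome 11.

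Promoters of the immediate early genes were searched on both strands for a heat-shock element (GAANNTTC) and a cAMP response element (TGACGTCA), in windows from 250 bases before to 50 after the start of the gene (RefSeq, GRCm38.p6). All 32851 promoters of that length held the first in 7.86% and the second in 1.79%, and the 1223 promoters of genes tested in microglia in 6.7% and 3.52%. Of the 25 list genes 21 have an entry (22 promoters), and Egr1, Ier2, Nfkbiz and Hsp90aa1 have none. GAANNTTC was in 3 of the 22 (13.6%), those of Hspa1a, Hspa1b and Jun, and TGACGTCA in 2 (9.09%), those of Btg2 and Dusp1. Ccl2 and Ccl4 have no entry, and in Ier3, Klf2 and Ccl3 the letters are not in this window. Printed here, to show where the letters lie, are 4 of these 5 promoters, 5′ to 3′ on the gene's strand with the matching letters in capitals: Hspa1a (chr17:34972107-34972406, minus strand), Hspa1b (chr17:34959189-34959488, minus strand), Jun (chr4:95052173-95052472, minus strand) and Dusp1 (chr17:26508423-26508722, minus strand). The Hspa1a and Hspa1b windows are identical at 296 of 300 bases (98.7%). A match describes the letters and is not evidence of binding.
Hspa1a: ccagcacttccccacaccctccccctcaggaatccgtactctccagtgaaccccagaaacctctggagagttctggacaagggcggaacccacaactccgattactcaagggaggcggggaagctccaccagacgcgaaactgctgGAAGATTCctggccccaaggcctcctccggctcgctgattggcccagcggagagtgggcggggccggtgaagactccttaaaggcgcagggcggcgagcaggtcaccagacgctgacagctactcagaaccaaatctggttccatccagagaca
Hspa1b: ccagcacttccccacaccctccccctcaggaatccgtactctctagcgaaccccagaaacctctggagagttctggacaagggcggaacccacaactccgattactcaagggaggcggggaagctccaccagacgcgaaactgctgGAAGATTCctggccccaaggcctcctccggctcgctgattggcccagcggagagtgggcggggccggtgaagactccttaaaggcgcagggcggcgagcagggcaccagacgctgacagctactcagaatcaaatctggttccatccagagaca
Jun: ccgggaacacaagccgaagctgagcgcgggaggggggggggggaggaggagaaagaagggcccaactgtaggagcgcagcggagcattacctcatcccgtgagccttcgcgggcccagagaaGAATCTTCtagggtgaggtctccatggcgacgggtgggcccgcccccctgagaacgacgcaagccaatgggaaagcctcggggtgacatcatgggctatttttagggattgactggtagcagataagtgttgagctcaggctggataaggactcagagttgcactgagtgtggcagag
Dusp1: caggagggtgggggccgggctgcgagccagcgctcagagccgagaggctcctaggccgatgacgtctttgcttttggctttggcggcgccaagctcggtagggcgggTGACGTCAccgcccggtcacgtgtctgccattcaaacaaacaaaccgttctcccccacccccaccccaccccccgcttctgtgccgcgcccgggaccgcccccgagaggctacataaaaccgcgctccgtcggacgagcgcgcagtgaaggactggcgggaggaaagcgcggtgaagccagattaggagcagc

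Border macrophages live in the meninges and around vessels and share C1q, Csf1r and Cx3cr1 with microglia, so the rule can take them. Of the 244 cells, 22 had at least 3 UMIs of Mrc1, Pf4, Ms4a7, Cbr2 and Lyve1 and more of these than of P2ry12, Tmem119 and Siglech, and are called border macrophage-like. They were 0 of 16, 1 of 34 and 4 of 95 cells in WT cortex, 6 of 27 (22.2%) in null cortex, 8 of 41 (19.5%) in WT hippocampus and 3 of 22 (13.6%) in null hippocampus. The share was lower in each WT cortex library than in the 3 other libraries, but the counts are small and the intervals overlapped. The 95% Wilson intervals were 10.6 to 40.8% in null cortex, 10.2 to 34.0% in WT hippocampus and 4.75 to 33.3% in null hippocampus. In WT cortex their upper limits were 19.4, 14.9 and 10.3%. Their median depth was 1836 UMIs, against 1221.5 in the other microglia. The following values are description, since the cells were chosen on some of these genes.

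Pf4, a chemokine of border macrophages, had 7798 CPM in these cells and 3.48 in the other microglia, and Mrc1, the mannose receptor, had 3760 and 38.3. Dab2, an endocytic adaptor not used to choose them, had 1741 and 20.9, Clec10a, a lectin, had 1009 and 0, and Lyz2, lysozyme, had 3281 and 243. Apoe had 68541 and 4135 CPM. In the other direction, Cst3 had 9590 and 62369, Sparc 126 and 4612, and Tmem119 0 and 1332. So these cells held both more of the border genes and less of the homeostatic genes. C1qa was near in both, at 9691 and 10959 CPM, and Csf1r had 1817 and 2789. Cx3cr1 had 606 and 3151, and Trem2 757 and 2501.

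The border macrophage list (16 genes, 9 tested) moved with these cells. Its summed level was 119.8, 2209.6 and 1506 CPM in WT cortex, 5213 in null cortex, 6258 in WT hippocampus and 2823 in null hippocampus, and without the border macrophage-like cells 119.8, 269.8 and 329 CPM in WT cortex, 303 in null cortex, 255 in WT hippocampus and 264 in null hippocampus. Pf4 had 0, 761 and 290.1 CPM in WT cortex, 1476 in null cortex, 2217 in WT hippocampus and 1043 in null hippocampus. Mrc1 had 0, 471 and 178 CPM in WT cortex, 929.6 in null cortex, 1010.5 in WT hippocampus and 381 in null hippocampus, and Dab2 had 0, 36.2 and 112 CPM in WT cortex, 383 in null cortex, 505 in WT hippocampus and 254 in null hippocampus. Ms4a6c had 109 to 255 CPM. For Pf4, Mrc1 and Dab2, WT hippocampus lay above all WT cortex libraries, and null cortex did as well. Between regions all 9 tested genes lay above the 3 WT cortex libraries (background 19.1%) and 5 were at an unadjusted p under 0.05 (background 1.21%), with a median of 2.18 and 0 past the threshold. With the replicate block Pf4 and Mrc1 passed between regions. Within replicate 3 all 9 were higher in hippocampus (621 of all 1244 genes tested), with a median of 1.51. In cortex 8 of 9 lay above all WT libraries (background 25.6%), with a median of 2.09 and 0 past the threshold. Within replicate 2 the cortical median was 0.858, with 8 of 9 higher in null (618 of all 1244 genes). In hippocampus 0 of 9 were higher in null (597 of all 1244 genes), with a median of -1.17.

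Immediate early and dissociation genes were not confined to these cells. Without them the summed level was 759, 10637 and 2632 CPM in WT cortex, 17169 in null cortex, 1824 in WT hippocampus and 25835 in null hippocampus. In the border macrophage-like cells alone it was 10843 CPM in WT cortex 2, 1216 in WT cortex 3, 44780 in null cortex, 1337 in WT hippocampus and 27574 in null hippocampus. Both kinds of cell were high in the replicate 2 libraries and low in the replicate 3 libraries. In all microglia without these cells, the log2 difference of Hspa1a between null and WT cortex was 3.53 (edgeR adjusted p = 0.508), that of Dusp1 was 3.59 (0.288) and that of Klf2 was 3.95 (0.319), each with null cortex above 3 of 3 WT libraries. Ier3 still rose, by 4.97 (edgeR adjusted p = 0.00991, above 3 of 3), and Ccl2 had too few UMIs to be tested. In null cortex the 49 Ier3 UMIs of the other microglia lay in 6 of 21 cells, 37 of them in 1 cell. The border macrophage-like cells were not tested on their own.

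Between regions in WT, 0 of 1244 genes passed in edgeR (25 at an unadjusted p under 0.05), and DESeq2 also called 0 (8 at an unadjusted p under 0.05). The 5 genes with the smallest p were Dab2, Pf4, Apoe, Zfp36 and Mbp, given as values only. Hippocampus minus cortex, on the log2 scale, was 2.77 (SE 0.76) for Dab2, 2.67 (SE 0.80) for Pf4, 1.79 (SE 0.59) for Apoe and 2.22 (SE 0.75) for Mbp. Zfp36 had 0 UMIs in WT hippocampus and 1, 9 and 10 in WT cortex. Of these 5, Dab2 and Pf4 are in the border macrophage list, and Apoe moved with it. Without WT cortex 1 there were 3 genes past the threshold, and without WT cortex 3 there was 1. With the replicate block on sums of at least 5 cells, added after the data were seen and with 1 residual degree of freedom, 5 genes passed (edgeR): Pf4 by 2.81 (adjusted p = 0.00162), Mrc1 by 2.37 (0.00278) and Mbp by 2.17 (0.00587) were higher in hippocampus, and Snhg11 with -4.6 (8.9e-10) and Meg3 with -4.38 (3.16e-07) were lower. Within replicate 3, the only replicate with at least 10 microglia from both regions in WT, 0.161% of genes were at least 4-fold higher in hippocampus and 0.322% lower, and Pf4 differed by 7.64-fold (counting interval 5.14 to 11.7) and Mrc1 by 5.68-fold (3.35 to 10.1). No gene passed in a test of whether the genotype difference differs between the regions in edgeR (29 of 1244 at an unadjusted p under 0.05).

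The summed level of cell division genes was highest in WT hippocampus, where some of them lay in very few cells. Mki67, a marker of cycling cells, had 2 UMIs in WT cortex 3 and 10 in WT hippocampus, in 2 cells, 9 of the 10 in 1 cell. Top2a, a topoisomerase of dividing cells, had 10 UMIs in 1 cell of WT hippocampus. Cdk1, the kinase that starts mitosis, had 1 UMI in WT cortex 2, 3 in WT cortex 3 and 8 in WT hippocampus. Stmn1 had 159.8, 72.4 and 271 CPM in WT cortex, 146 in null cortex, 522 in WT hippocampus and 254 in null hippocampus, Hmgb2 had 119.8, 109 and 74.9 CPM in WT cortex, 109 in null cortex, 391 in WT hippocampus and 127 in null hippocampus, and Mcm3 at most 7 UMIs in a library. Of 20 names 19 are in the files, 2 genes were tested and 0 passed, with medians of 1.75, -0.06 and -1.29, and the summed level was 399, 326 and 543 CPM in WT cortex, 365 in null cortex, 1874 in WT hippocampus and 381 in null hippocampus.

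The genes with the most UMIs in microglia, apart from those above, were housekeeping and iron genes. Tmsb4x, which binds actin monomers, had 36266, 16300.2 and 28024 CPM in WT cortex, 28089 in null cortex, 33982 in WT hippocampus and 23139.9 in null hippocampus, and Actb, actin itself, had 4074, 4492 and 4641 CPM in WT cortex, 7218 in null cortex, 5884 in WT hippocampus and 6154 in null hippocampus. Fth1, the heavy chain of the iron store ferritin, had 3994, 2246 and 1899 CPM in WT cortex, 9971 in null cortex, 3504 in WT hippocampus and 6586 in null hippocampus, and Ftl1, the light chain, had 6829.9, 2318 and 2957 CPM in WT cortex, 7218 in null cortex, 4238 in WT hippocampus and 5772 in null hippocampus. Fth1 was highest in both null libraries, while Ftl1 was as high in WT cortex 1. Itm2b, a membrane protein, had 7109, 2608 and 2901 CPM in WT cortex, 5323 in null cortex, 4694 in WT hippocampus and 4348 in null hippocampus, and Tpt1 had 2237, 2934 and 4585 CPM in WT cortex, 6143 in null cortex, 5623 in WT hippocampus and 6077 in null hippocampus. Fau, a ribosomal protein fusion, had 3799 to 6122 CPM. Malat1, a nuclear RNA, had 17214, 38649.6 and 30186 CPM in WT cortex, 7509.9 in null cortex, 17569 in WT hippocampus and 12918 in null hippocampus, lowest in null cortex and null hippocampus. Xist, the RNA of the inactive X chromosome in females, had 959, 0 and 1301 CPM in WT cortex, 0 in null cortex, 1874 in WT hippocampus and 0 in null hippocampus, so it was seen in WT cortex 1 and 3 and WT hippocampus 3 and in no microglial cell of the replicate 2 libraries. Cells with Xist thus came only from replicates 1 and 3 here, and the part of sex in the differences was not tested.

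Some genes varied strongly between cells of 1 library, by the ratio of variance to mean in cells thinned to 1000 UMIs, in the 5 libraries with at least 20 microglia (not WT cortex 1; WT cortex 2 had 7 cells deep enough to thin). Apoe ranked first in 4 of the 5, and Cst3, Pf4, Mrc1, Lyz2, Ccl2, Ccl4, Ccl7 and Hspa1a were among the top 20 in 2 or more. Ctsd, Tmsb4x, Malat1 and Mbp were too, with the mitochondrial genes mt-Cytb, mt-Nd2, mt-Nd4, mt-Rnr1 and mt-Rnr2. mt-Rnr2, the large mitochondrial ribosomal RNA, had 1358, 19814 and 20389 CPM in WT cortex, 7291 in null cortex, 16836 in WT hippocampus and 11773 in null hippocampus, lowest in WT cortex 1. The neuronal RNAs Meg3 and Snhg11 were in this set as well. Meg3 had 0, 1630.0 and 4239 CPM in WT cortex, 54.7 in null cortex, 179 in WT hippocampus and 127 in null hippocampus, and Snhg11 had 0, 507 and 1169.6 CPM in WT cortex, 18.2 in null cortex, 48.9 in WT hippocampus and 50.9 in null hippocampus. In WT cortex 3 Meg3 had 453 UMIs in 72 of 95 cells, and in WT cortex 2 35 of its 45 UMIs were in 1 cell. Both RNAs were high in WT cortex 2 and 3 only.

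RNA of the sorted interneurons was seen at low levels. The interneuron list without Gad1 and Gad2, which the rule used (13 genes, Lamp5 without a UMI), summed to 239.6, 362 and 1160.3 CPM in WT cortex, 164 in null cortex, 228 in WT hippocampus and 763 in null hippocampus, against 16842 to 38747 CPM in interneurons themselves. Sst, the neuropeptide somatostatin, had the most UMIs, with 119.8, 145 and 552 CPM in WT cortex, 18.2 in null cortex, 97.8 in WT hippocampus and 432 in null hippocampus. It was in 27.9% of microglia (median 1258.5 UMIs), 18.3% of oligodendrocytes (5750.0 UMIs), 15.2% of astrocytes (2777.5 UMIs) and 68.7% of interneurons (9006 UMIs). Npy had 1, 2 and 20 UMIs in WT cortex, 6 in null cortex, 2 in WT hippocampus and 2 in null hippocampus, and Snap25, Stmn2 and Syt1 at most 11 UMIs in a library. Of the list, 1 gene was tested, with log2 differences of -1.69, -3.96 and 2.14 and 0 calls. WT cortex 3 and null hippocampus were highest.

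Grin1, the gene deleted in the interneuron lineage, had 4 UMIs in 3 cells of WT cortex 3 (37.4 CPM) and 0 in the 5 other libraries. That is 1.23% of the 244 microglia at a median of 1258.5 UMIs, against 1.01% of oligodendrocytes at 5750.0 and 53.4% of interneurons at 9006. In interneurons Grin1 had 144, 236 and 211 CPM in WT cortex, 26.8 in null cortex, 140.0 in WT hippocampus and 19.1 in null hippocampus, lower in both null libraries. Grin2b had at most 6 UMIs in a library, Grin2a 1 and Grin3a 3, and Grin2c and Grin2d none. The list of 6 NMDA receptor genes summed to 36.2 CPM in WT cortex 2, 131 in WT cortex 3 and 0 elsewhere, with 0 genes tested.

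The TdTomato reporter, on which the cells were sorted, had 399, 109 and 271 CPM in WT cortex, 146 in null cortex, 375 in WT hippocampus and 254 in null hippocampus in microglia. In interneurons it had 544, 902 and 749 CPM in WT cortex, 1057 in null cortex, 894 in WT hippocampus and 966 in null hippocampus, and in oligodendrocytes 92.8, 219.7 and 129.9 CPM in WT cortex, 230.3 in null cortex, 232 in WT hippocampus and 389 in null hippocampus. Microglia lay below interneurons in every library, and above oligodendrocytes in 3 libraries and below them in 3. With each cell thinned to 1000 UMIs, which takes out the difference in depth, microglia with a reporter UMI were 31.3% in WT cortex 1, 0 of 7 cells in WT cortex 2, 22.9% in WT cortex 3, 7.69% in null cortex, 33.3% in WT hippocampus and 18.2% in null hippocampus. Interneurons had 42.1, 59.6 and 52.2% in WT cortex, 63.9% in null cortex, 52.7% in WT hippocampus and 61.0% in null hippocampus.

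**Figure D4:**
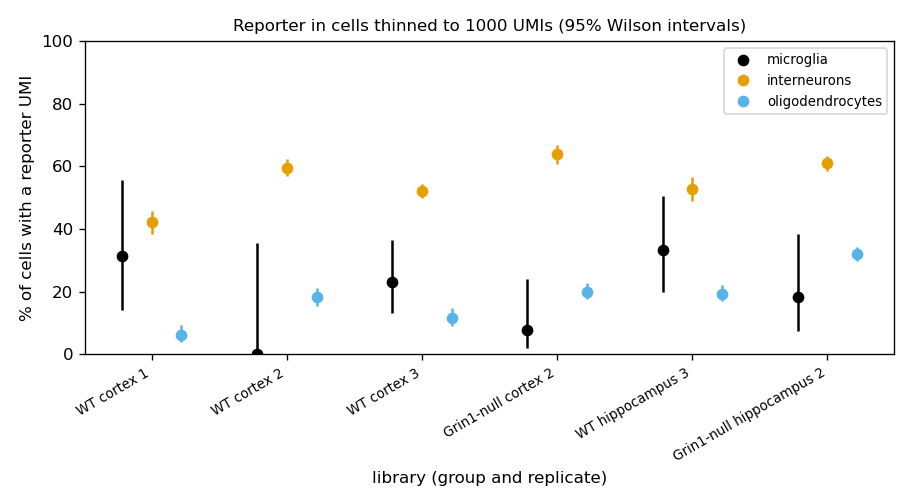
Percent of cells with a TdTomato UMI after thinning each cell to 1000 UMIs, for microglia, interneurons and oligodendrocytes of the 6 libraries with at least 10 microglia, with 95% Wilson intervals. The share in microglia is below that in interneurons in each library, and above that in oligodendrocytes in 3 libraries and below it in 3.

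Over the 5 libraries with at least 10 thinned microglia the mean share was 22.7% in microglia and 54.4% in interneurons, a difference of -31.7 points, lower in 5 of 5 libraries (two-sided exact permutation test by sign flips, p = 0.0625, the smallest p that 5 libraries allow). With counts as deposited the difference was -66.7 points in 6 of 6 libraries (exact permutation p = 0.03125), and with libraries of at least 5 microglia it was -36.5 in 7 of 7 (exact permutation p = 0.0156). Against oligodendrocytes it was 4.88 points the other way, higher in 3 of 5 (exact permutation p = 0.625). Astrocytes of these 5 libraries had 42.9% in WT cortex 1, 71.9% in WT cortex 3, 88.0% in null cortex, 39.6% in WT hippocampus and 83.3% in null hippocampus, above microglia in all 5 and above interneurons in 4, and were not tested. In these 5 libraries microglia thus held a lower reporter share than interneurons and astrocytes. Their counting interval overlapped those of both in WT cortex 1 and WT hippocampus 3. They lay on both sides of oligodendrocytes, and a test on 5 libraries cannot show that the 2 shares are alike.

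Myelin RNA was present although cells with a Mog UMI were left out. The 12 oligodendrocyte genes other than Mog summed to 759, 942 and 1142 CPM in WT cortex, 1568 in null cortex, 2005 in WT hippocampus and 1475 in null hippocampus in microglia and to 240.2, 138 and 229 CPM in WT cortex, 189 in null cortex, 572 in WT hippocampus and 403 in null hippocampus in interneurons. Microglia were higher in CPM in each of the 6 libraries. The log2 difference in CPM was 2.24 (SD 0.565, 6 of 6 libraries, two-sided exact permutation test by sign flips, p = 0.03125). With any 1 library left out it was 2.08 to 2.36 with an exact permutation p of 0.0625, the smallest that 5 libraries allow. CPM is relative to the UMIs of the cells, and microglia were shallower than interneurons (median 1258.5 against 9006 UMIs). Cells were not thinned here, so the test does not show that microglia held more myelin UMIs per cell.

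The list's most abundant gene in microglia was Trf, transferrin, with 559, 217 and 187 CPM in WT cortex, 711 in null cortex, 407 in WT hippocampus and 712 in null hippocampus. Mbp, which compacts myelin, had 0, 109 and 149.7 CPM in WT cortex, 456 in null cortex, 505 in WT hippocampus and 127 in null hippocampus. Trf has a mean of 3.54 CPM in interneurons, and Mbp has a mean of 11605 CPM in oligodendrocytes. Cnp, an enzyme of myelin, had at most 9 UMIs in a library and Mag at most 5, and Ptgds had none. A single cell held 14 of the 25 Mbp UMIs in null cortex and another 14 of 31 in WT hippocampus. Of the 12 genes 3 were tested and 0 passed, with medians of 0.69, 1.28 and -0.52. Whether the RNA was inside the cells or free in the droplets was not tested.

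Other cell types left few UMIs. Of the astrocyte list (12 genes) 7 had none, Aqp4 and Gja1 among them, and the most UMIs were of the glutamate transporter Slc1a3, with 2, 2 and 13 UMIs in WT cortex, 4 in null cortex, 5 in WT hippocampus and 7 in null hippocampus. Slc1a2, Aldoc, S1pr1 and Slc4a4 had at most 5 UMIs in a library, and the list summed to 359, 145 and 234 CPM in WT cortex, 91.1 in null cortex, 147 in WT hippocampus and 203 in null hippocampus. Of 18 monocyte, granulocyte and lymphocyte genes 15 had no UMI, among them Ly6c2, S100a8 and Cd3e. Lyz2 had 39.9, 326 and 290.1 CPM in WT cortex, 1294 in null cortex, 913 in WT hippocampus and 585 in null hippocampus, and Ptprc, the leukocyte gene CD45, had 39.9, 217 and 290.1 CPM in WT cortex, 309.9 in null cortex, 196 in WT hippocampus and 305 in null hippocampus. Lyz2 was highest in null cortex and WT hippocampus. That list summed to 79.9, 543 and 589 CPM in WT cortex, 1604 in null cortex, 1125 in WT hippocampus and 890.0 in null hippocampus, with 2 genes tested, 0 calls and medians of 0.93, 1.52 and 0.02.

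Of 12 endothelial and mural genes 10 had no UMI, Cldn5 and Pdgfrb among them, and Pecam1 and Kdr had at most 2 in a library, with a sum of 79.9, 36.2 and 18.7 CPM in WT cortex, 0 in null cortex, 32.6 in WT hippocampus and 25.4 in null hippocampus. Oligodendrocyte precursor genes summed to 0, 289.8 and 28.1 CPM in WT cortex, 0 in null cortex, 32.6 in WT hippocampus and 25.4 in null hippocampus, with no UMI of Pdgfra and at most 2 of Gpr17, C1ql1, Olig1, Olig2 or Bcas1 in a library. Of 9 glutamatergic genes 5 had none, Slc17a7 and Slc17a6 among them. The transcription factor Zbtb20 led that list with 1, 5 and 9 UMIs in WT cortex, 3 in null cortex, 2 in WT hippocampus and 9 in null hippocampus, Neurod2, Camk2a and Prox1 had at most 2 in a library, the list summed to 39.9, 254 and 103 CPM in WT cortex, 91.1 in null cortex, 48.9 in WT hippocampus and 254 in null hippocampus, and its 1 tested gene had log2 differences of -1.53, -0.81 and 2.75 with 0 calls. Of 7 choroid plexus and ependymal genes only Ttr, a carrier made by the choroid plexus, had UMIs, 8 in 7 cells of WT hippocampus (130 CPM, 0 elsewhere). Astrocyte, precursor, endothelial and choroid lists had 0 genes tested. These levels were low in all 6 libraries, and their part in the differences between libraries was not tested.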

How the data were processed

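Single-cell RNA was measured in TdTomato-sorted cells of 10 libraries held in 4 matrices. The deposited values are unscaled UMI counts, which the authors made with Cell Ranger (2.1.1 in the labels) on mm10. The headers of the matrices name another version, and which of them made the counts is not known. No doublet caller was run, and the limits on Mog, Gad1 and Gad2 are the only guard against mixed droplets. Libraries were told apart by barcode suffix and matched to replicates by the cell numbers in the study's methods. Members and gene lists (24 lists, 340 genes) were chosen with earlier results of these data known. Xist, and list genes beyond the 5 with the most UMIs and those past a threshold, were named after their values were seen.

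Microglial UMIs were summed within each library that had 10 or more of the cells, and edgeR 4.0.16 tested the sums (TMM, filterByExpr, quasi-likelihood test, Benjamini-Hochberg) in R 4.3.3. DESeq2 1.42.0 was an alternative. Library shares were compared by exact permutation (two-sided) in Python 3.11.15 with numpy 2.4.6, pandas 2.3.3 and scipy 1.17.1. Differences between single libraries used log2 CPM with a prior count of 2 and a 4-fold limit. Thinning to 1000 UMIs used seed 1. Intervals are 95% Wilson intervals for shares and exact Poisson intervals for UMIs. Alternatives included other cell limits, scalings, filters, each library left out and, added after seeing the data, a replicate block with sums of at least 5 cells. Recovery was also tried on simulated counts with a lower spread than these data have, and its outcome is not reported here. The ribosome-tagged RNA, in situ hybridisation and immunostaining of the study were not analysed. Values of some genes on the lists are not reported here.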

Additional observations from a re-analysis of the deposited data

How the results depend on the processing

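No paired analysis was possible for gene counts in sums of at least 10 cells because a replicate block leaves no residual degrees of freedom. With sums of at least 5 cells, added after seeing the data, the block gave 5 genes between regions, 10 in cortex and 0 in hippocampus. Between regions 0 genes became 3 with sums of at least 20 cells, and 0 to 3 with a library left out. In cortex 5 genes became 0 with DESeq2, 0 with library-size scaling, 12 with no filter on low counts, 2 with sums of at least 5 cells, 26 with sums of at least 20 cells, 1 without border macrophage-like cells, 0 with a C1q minimum of 10 UMIs, and 0 to 26 with a library left out. In hippocampus 3 genes became 11 at an adjusted p under 0.05, 0 with DESeq2, 0 with library-size scaling, 7 with no filter on low counts, 1 with sums of at least 5 cells, 23 with sums of at least 20 cells, 0 without border macrophage-like cells, 0 with a C1q minimum of 10 UMIs, and 0 to 23 with a library left out. Fitting only the 2 groups compared was not possible in hippocampus, nor was leaving out a library that is its group's only one.

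The cortical difference in share (-0.431 points) became 0.177 with a minimum of 1000 genes and a maximum of 10% mitochondrial UMIs. It became 0.0183 with the replicate block and -0.746 to 0.0183 with a library left out. With cells thinned to 1000 UMIs, and lower limits on C1q and on Cx3cr1 and Csf1r, it became 0.0898. The hippocampal one (-0.262) became 0.0165 with a minimum of 1000 genes and a maximum of 10% mitochondrial UMIs and 0.125 with the replicate block, and -0.533 to 0.125 with a library left out. The regional one (-0.986) became -0.0492 with a minimum of 1000 genes and a maximum of 10% mitochondrial UMIs. It became -0.503 with cells thinned to 1000 UMIs and the same lower limits, and -1.37 to -0.537 with a library left out. The reporter difference (-31.7 points) became -66.7 with counts as deposited, -36.5 with at least 5 microglia and 4.88 against oligodendrocytes, and -36.9 to -25.6 with a library left out. The myelin difference in CPM (2.24 on the log2 scale) became 1.50 with a shorter gene list, and 2.08 to 2.36 with a library left out.

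The main limits are few cells, few libraries and shallow counts. Of the 6 libraries with at least 10 microglia, both null libraries are replicate 2. Genotype, replicate and the presence of Xist thus overlap outside the cortical replicate 2 pair, and the sex of the animals in each library is not known. Variation between libraries was estimated from WT cortex alone, where replicate 1 was made with another version of the chemistry than the other libraries tested. Free RNA in droplets was not removed.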
